A study of Homo sapiens with 27 samples.

Results

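The mitotic kinesins are 10 motor genes, KIF11, KIF14, KIF15, KIF18A, KIF20A, KIF22, KIF23, KIF2C, KIF4A and KIFC1, listed by name; no measured value enters the rule, though the list was drawn up with earlier results of these data known. All 10 were tested on the main array platform, among 17414 genes, and all 10 on the second platform, among 14269 genes. They were measured in HepG2 cells, a line from a human hepatocellular carcinoma, exposed for 48 h to 1 of 9 polycyclic aromatic hydrocarbons, compounds made of fused aromatic rings. NP stands for naphthalene, PH for phenanthrene, BA for benzo[a]anthracene, CHR for chrysene and 3MC for 3-methylcholanthrene. BaP stands for benzo[a]pyrene, IND for indeno[1,2,3-c,d]pyrene, BF for benzo[k]fluoranthene and DBA for dibenzo[a,h]anthracene. On 3 arrays for each compound, the exposed cells' RNA was labelled with Cy5 and that of DMSO (solvent) cells with Cy3. IND was on the second platform.

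Kinesins are motor proteins that walk along microtubules or take them apart at their ends. The mitotic members build the spindle, move chromosomes on it and organise the midzone where the cell later divides. Their messenger RNAs are made mainly as cells approach mitosis, and HepG2 cells, unlike most hepatocytes of adult liver, divide in culture.

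Values are log2 ratios of compound over DMSO, as the mean ± SD of 3 arrays unless stated otherwise, so a negative value means a lower level in the exposed cells. A gene fell or rose where limma's adjusted p, over all genes tested, was under 0.05 and the change at least 1.5-fold. Doses are not given in the sources used here, so compounds are compared as applied. The labels do not say whether the 3 arrays of a compound came from separate cultures, so p-values measure the spread between arrays, which may be technical. On the main platform this spread is pooled over 24 arrays of 8 compounds. Its p-values and intervals therefore do not follow the spread of a compound's own 3 arrays. The dyes were never exchanged, so a gene's dye bias stays in its ratio. Between compounds it cancels only where it is the same on their arrays, which was not tested. In such bulk RNA, fewer dividing cells and less RNA per cell cannot be told apart.

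The arrays of NP, 3MC and DBA were dim, with median spot intensities of 70 to 163 in Cy5 and 68 to 299 in Cy3, against 342 to 1535 in Cy5 and 507 to 1370 in Cy3 on the others. Their scanner files also had another layout, of 61 columns against 49 on the others. Differences between these compounds and the others thus cannot be told apart from differences between layouts. BA array 1 stood apart: its ratios over all genes correlated with those of BA arrays 2 and 3 at 0.18 and 0.13, against 0.86 between arrays 2 and 3. Its median over the 10 kinesins was -0.34, against -0.90 and -0.89 on the other BA arrays. No spot of a kinesin was saturated. All 8 hepatocyte markers were measured above the filter. Of 7 markers of other cell types, 3 changed with CHR, 2 with BaP, 1 with BA, 1 with 3MC and 0 with NP, PH, BF and DBA, and of the 3 tested with IND 0 changed. The part of these markers in the kinesin ratios was not tested.

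Kinesin messenger RNAs fell with most compounds and rose with none. Of 90 pairs of kinesin and compound, 71 fell and 19 did not pass, and in 85 pairs all 3 arrays were below 0. All 10 kinesins fell with BaP, where 10% of all genes tested fell, all 10 with BF (20.3% of all genes), all 10 with CHR (12.2%) and all 10 with IND (13.3%). With PH 9 fell (7.92% of all genes), with 3MC 8 (7.49%), with BA 8 (3.1%), with DBA 5 (7.29%) and with NP 1 (12.6%). Genes that rose made up 15.1% of all genes with BaP, 16.1% with BF, 11.8% with CHR, 10.6% with IND, 10.6% with PH, 3.68% with 3MC, 2.03% with BA, 3.07% with DBA and 6.73% with NP, and none of them was a mitotic kinesin. The count of kinesins that fell with DBA was 10 with plain background subtraction and 8 with no background correction. That with BA was 4 with median centring and 0 when BA was fitted on its own 3 arrays. With the authors' ratios it was 3 of the 8 kinesins fitted, from BA arrays 1 and 2 alone.

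The median over the 10 kinesins was -2.60 with BaP, -1.71 with BF, -1.56 with PH, -1.42 with IND and -1.10 with CHR. It was -0.88 with 3MC, -0.72 with BA, -0.62 with DBA and -0.08 with NP, while the median over all genes lay between -0.01 and 0.04. The background correction adds an offset of 50 to every signal, which draws ratios of weak signals toward 0. The arrays of NP, 3MC and DBA were the dimmest, and mean Cy5 signals with DBA ran from 3.33 (KIF14) to 158 (KIF2C). The part of the offset in the order of compounds was not tested. BaP gave the lowest mean for 9 kinesins and BF for KIF22, and NP gave the highest for 8. In the orders of compounds by mean, the arrays of 40 of 80 neighbouring pairs overlapped. By limma's F test all 10 kinesins differed among the 8 compounds of the main platform, as did 89.8% of all genes.

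**Figure D1:**
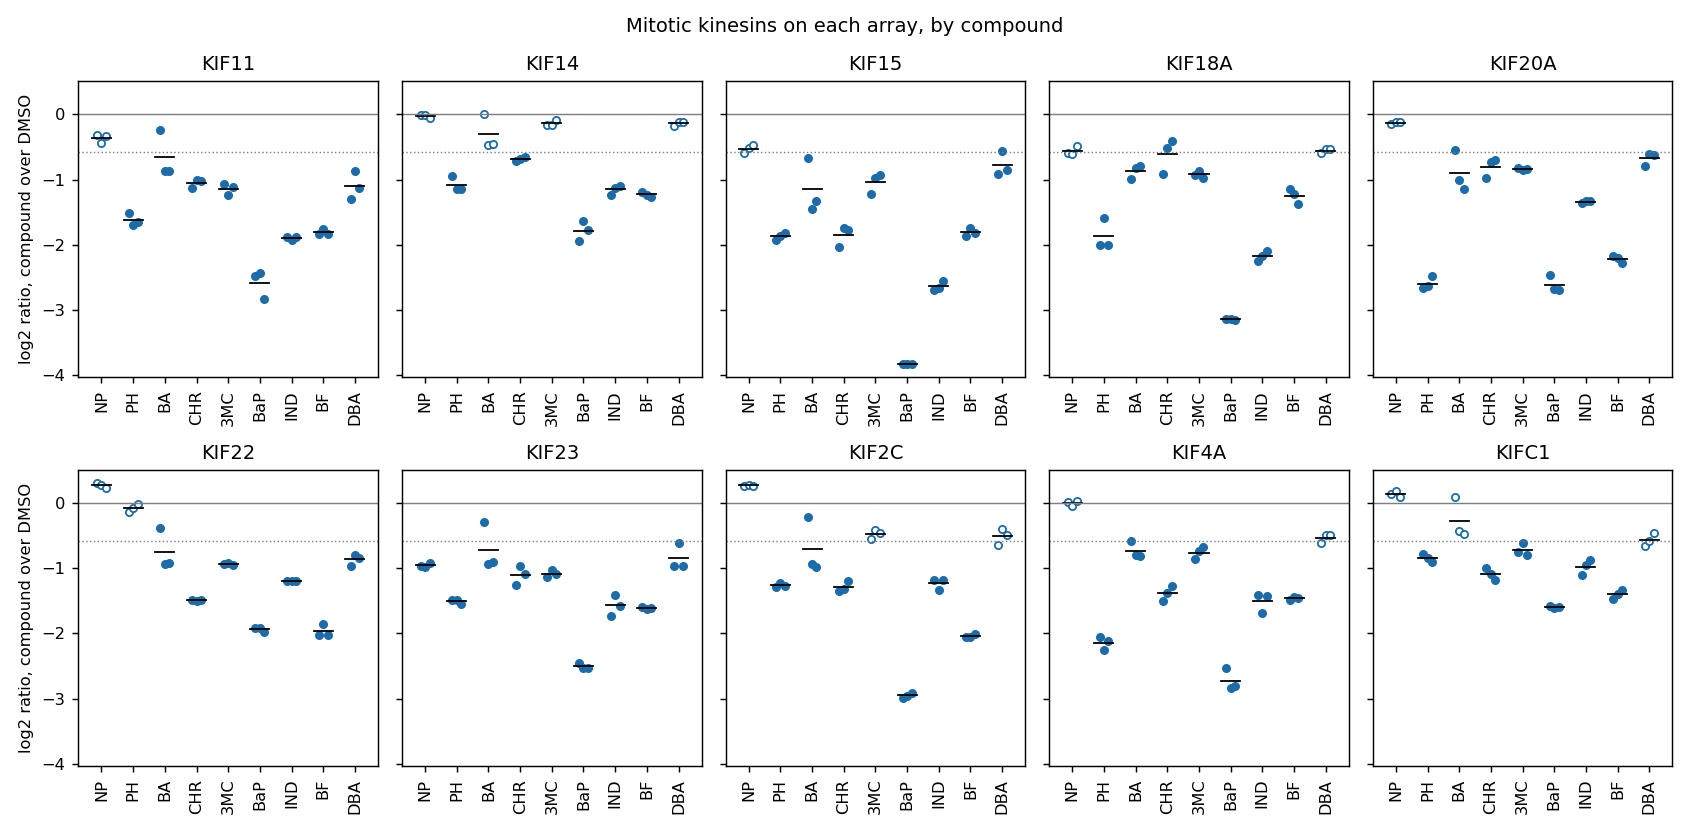
Log2 ratio of compound over DMSO for each mitotic kinesin on every array (points), by compound. Filled points mark a compound with which the gene passed, open points one with which it did not, and the dotted line marks 1.5-fold lower. KIF15 with BaP lies lowest, at -3.82 on average, and NP arrays lie nearest 0 for most genes.

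The stretch of promoter from 100 bases before to 20 bases after the gene start is shown for 6 kinesins, from RefSeq windows on GRCh38.p14. They were chosen for how their motifs are arranged: KIF4A, KIF18A and KIF23 hold a CCAAT and a TTTGAA, KIF22 a CCAAT and a TTCGAA, KIF15 an E2F word, and KIF20A CCAAT alone. Capitals mark matches, on either strand, to CCAAT (the NF-Y box, bound by the factor NF-Y), TTTGAA or TTCGAA (the cell cycle genes homology region, bound by the DREAM and MuvB complexes) and TTTCCCGC, TTTGGCGC or TTTCGCGC (E2F words). In KIF15 the E2F word and the homology region adjoin without overlap, so its capitals run on.
KIF4A (chrX:70290004-70290123, plus strand): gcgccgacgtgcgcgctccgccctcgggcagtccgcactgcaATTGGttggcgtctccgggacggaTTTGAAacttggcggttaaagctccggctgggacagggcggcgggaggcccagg
KIF23 (chr15:69414249-69414368, plus strand): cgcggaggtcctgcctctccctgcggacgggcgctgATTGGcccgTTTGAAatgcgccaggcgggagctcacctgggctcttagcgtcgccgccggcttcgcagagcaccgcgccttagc
KIF18A (chr11:28108137-28108256, minus strand): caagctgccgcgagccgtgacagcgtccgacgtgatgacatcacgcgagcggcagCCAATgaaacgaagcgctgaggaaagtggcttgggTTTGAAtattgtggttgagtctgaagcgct
KIF22 (chr16:29790651-29790770, plus strand): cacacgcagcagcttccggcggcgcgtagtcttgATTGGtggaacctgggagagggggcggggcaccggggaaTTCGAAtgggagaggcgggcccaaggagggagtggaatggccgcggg
KIF15 (chr3:44761694-44761813, plus strand): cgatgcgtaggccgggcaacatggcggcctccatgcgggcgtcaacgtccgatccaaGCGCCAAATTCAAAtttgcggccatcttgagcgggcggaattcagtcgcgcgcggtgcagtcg
KIF20A (chr5:138179012-138179131, plus strand): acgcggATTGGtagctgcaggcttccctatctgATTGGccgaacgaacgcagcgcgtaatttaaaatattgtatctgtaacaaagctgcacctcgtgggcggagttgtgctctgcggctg

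All 10 kinesins have a RefSeq window of 250 bases before to 50 after the start, and KIF22 has 2. The letters of the homology region were found in 8 of 10 kinesins, against 16.4% of all 35116 windows. CCAAT was found in 8 of 10, against 34.6% of windows, and both in the same window in 7 of 10, against 6.38%. In all 7 the nearest CCAAT stood upstream of the homology region. KIF15 held the only E2F word among the kinesins, against 2.74% of windows, and KIF2C held none of these letters. The homology region was found in 11 of 12 genes with a window among the kinesins' partners and in 1 of 19 among transport kinesins. A match of letters is a description, and no binding was measured.

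**Figure D2:**
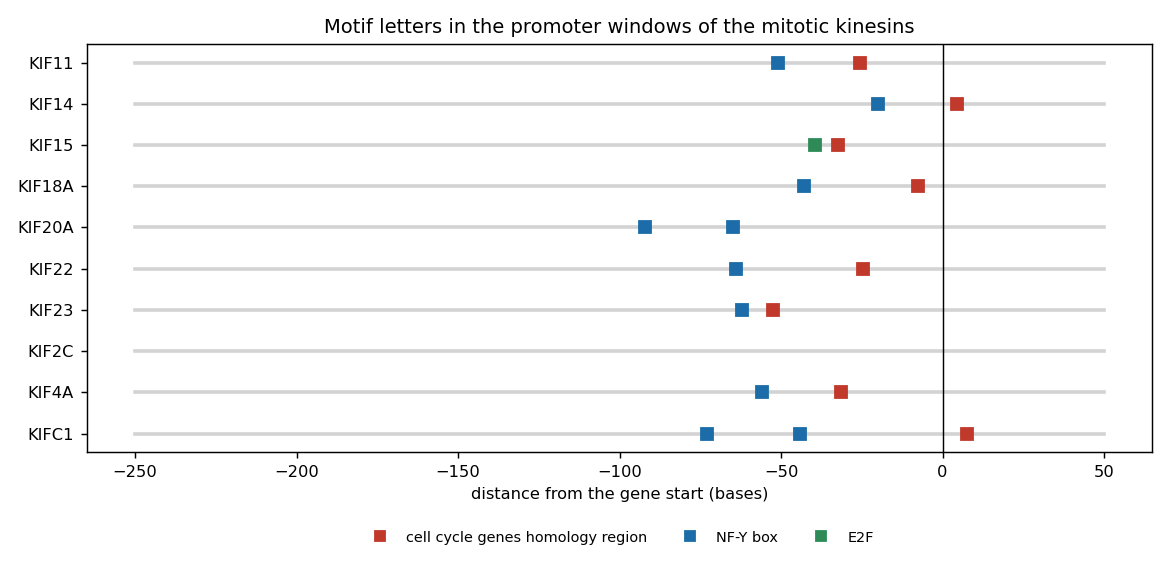
Positions of the motif matches along the promoter window of each mitotic kinesin, in bases from the gene start. CCAAT and the homology region stand together in 7 of 10 genes, and KIF2C has no match.

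Among the kinesins that keep the spindle bipolar, KIF15 can hold poles apart alongside KIF11. Of KIF15, KIF11 and KIFC1, KIF15 had the lowest mean with all compounds but 3MC and DBA, where KIF11 was lower. With BF the means of KIF15 (-1.808) and KIF11 (-1.806) were nearly equal. The background-subtracted intensities of KIF15 were 210, 228 and 255 in BaP cells, against 3729, 3906 and 4320 in DMSO cells. The ratios of the 3 arrays were -3.82, -3.82 and -3.83, a level 14.2-fold lower with an adjusted p of 3.45e-18 by limma. No other kinesin had as low a mean with any compound. With IND KIF15 was 6.22-fold lower, at -2.69, -2.66 and -2.56, and these arrays lay below all of PH. PH (-1.87 ± 0.0525), CHR (-1.85 ± 0.158) and BF (-1.81 ± 0.0683) followed with overlapping arrays. KIF15 also fell with BA (-1.15 ± 0.415), 3MC (-1.04 ± 0.157) and DBA (-0.78 ± 0.19), while with NP its arrays were -0.60, -0.51 and -0.47, short of 1.5-fold.

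KIF11 slides antiparallel microtubules apart and is the motor that first separates the poles. Its intensities were 1432, 1275 and 1194 in BaP cells, against 8134, 6868 and 8563 in DMSO cells, a level 6-fold lower at -2.58 ± 0.216. KIF11 fell with 8 compounds, among them IND (-1.89 ± 0.0222), BF (-1.81 ± 0.0451), PH (-1.62 ± 0.0944), 3MC (-1.14 ± 0.0862) and DBA (-1.10 ± 0.215). With NP its arrays were -0.31, -0.44 and -0.33, all below 0 but short of 1.5-fold. A second probe of KIF11 had the same sign with all 9 compounds and differed most in size with DBA, at -0.61 ± 0.113. With IND the 2 probes changed places as the brighter one, and the dimmer gave -1.50 ± 0.157.

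KIFC1, which walks to minus ends and gathers microtubules at the poles, fell with 6 compounds and least of the 10 with BaP. Its intensities were 432, 477 and 611 in BaP cells, against 1424, 1568 and 1950 in DMSO cells, and the ratio was -1.59 ± 0.0201. BF followed at -1.40 ± 0.0641, CHR at -1.09 ± 0.0932, IND at -0.97 ± 0.113, PH at -0.84 ± 0.0614 and 3MC at -0.72 ± 0.0967. The arrays of CHR and IND overlapped, as did those of IND and PH. With BA the arrays were 0.09, -0.43 and -0.48, so array 1 stood on the other side of 0, and KIFC1 did not pass.

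Among the kinesins that act on chromosomes, KIF18A, which damps chromosome movements at the metaphase plate, was closest to KIF15 in its fall with BaP. Its intensities were 125, 134 and 138 in BaP cells, against 1540, 1590 and 1668 in DMSO cells, and the ratios were -3.13, -3.14 and -3.15, 8.82-fold lower. With IND it was 4.49-fold lower (-2.17 ± 0.0748). With CHR its arrays spread over -0.91, -0.52 and -0.42, and the fall of -0.62 ± 0.261 no longer passed without CHR array 1, at -0.47. With DBA its Cy5 signal was not well above background on any array, which gives a bound only, of at least 1.47-fold lower in DBA cells. For such a bound the Cy5 level on each array is the higher of the probe's own and the dimmest signal well above background there. For KIF18A with DBA its own level was the higher, so the bound equals the fitted fold.

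KIF2C takes microtubules apart at centromeres and so frees wrong attachments. Its intensities were 483, 477 and 590 in BaP cells, against 4270, 4020 and 4755 in DMSO cells, a level 7.73-fold lower (-2.95 ± 0.0395). It was 4.10-fold lower with BF (-2.04 ± 0.0191), and BaP and BF arrays did not overlap. CHR (-1.28 ± 0.0817), PH (-1.26 ± 0.0346) and IND (-1.23 ± 0.0872) overlapped. KIF2C did not pass with DBA (-0.51 ± 0.121), 3MC (-0.48 ± 0.0713) or NP (0.27 ± 0.0031).

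KIF4A, a chromosome-bound motor that also works at the midzone with PRC1, had intensities of 800, 699 and 570 in BaP cells, against 4934, 5243 and 4265 in DMSO cells. The ratio was -2.72 ± 0.166 with BaP, 6.60-fold lower, and -2.14 ± 0.103 with PH, 4.42-fold lower, and the arrays of both did not overlap. With NP its arrays were 0.01, -0.04 and 0.04, on both sides of 0. A near-identical gene, KIF4B, exists in the human genome, and whether its RNA binds the KIF4A spot is uncertain.

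KIF22, a chromosome-bound motor that pushes chromosome arms away from the poles, was the 1 kinesin that did not fall with PH. Its intensities were 1783, 1864 and 2140 in PH cells, against 2211, 2189 and 2263 in DMSO cells. The ratios were -0.14, -0.07 and -0.02, a mean of -0.08 ± 0.0593 with a 95% interval of -0.23 to 0.07. The other 9 kinesins averaged -1.64 ± 0.016 on the same arrays. With BaP, in contrast, KIF22 had 661, 748 and 845 in BaP cells, against 2701, 2949 and 3467 in DMSO cells.

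KIF22 fell with 7 compounds, to -1.97 ± 0.0975 with BF, -1.94 ± 0.0336 with BaP, -1.49 ± 0.0125 with CHR and -1.20 ± 0.00612 with IND. The arrays of BF and BaP overlapped, so no order between them can be read. Against the mean of the other 9 kinesins, KIF22 was lower with BF (-1.97 against -1.65) and CHR (-1.49 against -1.10) and higher with BaP (-1.94 against -2.64). The DMSO signal of KIF22 also differed between sets of arrays, at a normalised log2 level of 10.2 with PH and 10.9 with BaP, against 12.3 with BA, 12.6 with CHR and 12.7 with BF. The part of these DMSO levels in the ratios was not tested.

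**Figure D3:**
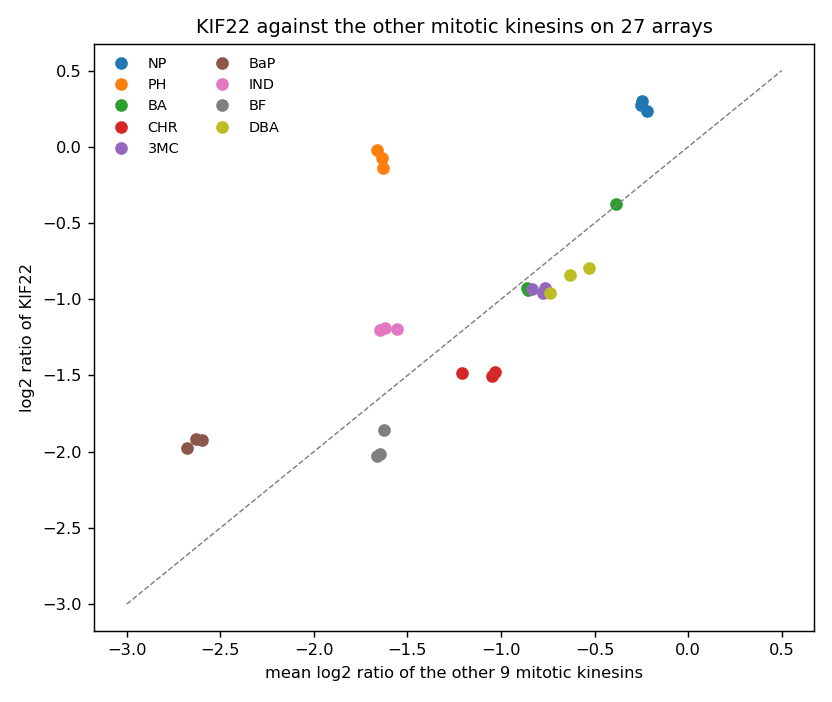
Log2 ratio of KIF22 against the mean log2 ratio of the other 9 mitotic kinesins, with points for the arrays of each compound. The PH arrays stand apart, with KIF22 at -0.08 and the others at -1.64 on average.

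Among the kinesins of the midzone, KIF20A carries the Aurora B complex there. It had 10 spots of 1 probe on each array, and intensities are means over them. With PH they were 427.1, 438.8 and 443.2 in PH cells, against 3215.4, 3274.9 and 2852.6 in DMSO cells. The ratio was -2.60 ± 0.0983 with PH, 6.04-fold lower, and -2.61 ± 0.128 with BaP, 6.11-fold lower, and the arrays of both overlapped. BF followed at -2.22 ± 0.0524 without overlap. KIF20A fell with all compounds but NP, where it was -0.13 ± 0.0178. With DBA, where it was -0.67 ± 0.0992, the scanner software had marked 26 of its 30 spots as not found.

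KIF23 joins RACGAP1 in centralspindlin, the complex that marks the plane of division. It fell with all 9 compounds and was the only kinesin that passed with NP. There its intensities were 523, 431 and 471 in NP cells, against 2058, 1749 and 1945 in DMSO cells, and the normalised ratios were -0.97, -0.97 and -0.92, 1.94-fold lower. KIF23 was lowest with BaP at -2.50 ± 0.046, and BF (-1.61 ± 0.0129), IND (-1.57 ± 0.159) and PH (-1.51 ± 0.0316) followed with overlapping arrays.

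KIF14, which brings citron kinase to the midbody, fell with 5 compounds. Its intensities were 182, 178 and 212 in BaP cells, against 877, 667 and 874 in DMSO cells, and the ratio was -1.78 ± 0.16. It also fell with BF (-1.23 ± 0.0382), PH (-1.08 ± 0.112) and CHR (-0.68 ± 0.0325), and with IND, where only a bound can be read. Its Cy5 signal was not well above background on any array of NP, 3MC, DBA or IND. The bounds were at least 2.22-fold lower with IND, which equals the fitted fold since the probe's own level was the higher there, 1.05-fold with DBA and 1.04-fold with 3MC, and NP gave none. Its Cy3 signal was well above background on 2 of 3 arrays with IND, DBA and NP.

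The kinesins were also compared between compounds in 5 pairs, with p-values adjusted over all genes within each pair. The kinesins' DMSO signal differed between sets of arrays. Its median normalised log2 level was 10.1 with NP and DBA, 10.2 with 3MC, 10.6 with BA, 10.8 with CHR and BF, 10.9 with PH and 11.1 with BaP. The part of these DMSO levels in the differences was not tested. BaP and BF are isomers, and 6 of 10 kinesins were lower with BaP than with BF, as were 13.5% of all genes. KIF15 differed by -2.02 (95% interval -2.30 to -1.73), KIF18A by -1.90 (-2.12 to -1.67) and KIF4A by -1.26 (-1.44 to -1.08). KIF2C, KIF23 and KIF11 differed by -0.91, -0.90 and -0.78. KIF22 differed by 0.03 (-0.18 to 0.24) and KIFC1 by -0.20 (-0.41 to 0.02), and neither passed. KIF14 (-0.56, -0.76 to -0.36) and KIF20A (-0.39, -0.62 to -0.16) were lower with BaP but short of 1.5-fold.

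BaP has more rings than PH, and 8 of 10 kinesins were lower with BaP than with PH, as were 9.8% of all genes. The differences were -1.95 for KIF15 (-2.24 to -1.66), -1.86 for KIF22 (-2.07 to -1.65) and -1.69 for KIF2C (-1.95 to -1.43). KIF20A did not pass, at -0.02 (-0.24 to 0.21), and neither did KIF4A, at -0.58 (-0.76 to -0.40).

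CHR and BA are isomers, and 4 of 10 kinesins were lower with CHR than with BA, as were 9.3% of all genes. They were KIFC1 (-0.82, -1.03 to -0.60), KIF22 (-0.74, -0.95 to -0.53), KIF15 (-0.70, -0.99 to -0.41) and KIF4A (-0.65, -0.83 to -0.47). These intervals rest on the pooled spread and may be too narrow here: KIFC1 had an SD of 0.312 with BA, against 0.0932 with CHR. Without BA array 1 the count was 1, KIFC1 at -0.64, and KIF15 was at -0.46, KIF22 at -0.56 and KIF4A at -0.58. KIF20A differed by 0.09 (-0.14 to 0.32) and did not pass.

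DBA and 3MC were each set against NP, a smaller hydrocarbon, and so share its arrays. With DBA 4 of 10 kinesins were lower than with NP, as were 4.52% of all genes: KIF22 by -1.13 (-1.34 to -0.93), KIF2C by -0.78, KIF11 by -0.74 and KIFC1 by -0.71. This count was 1 with median centring and 9 with plain background subtraction. With 3MC 6 of 10 were lower than with NP, as were 3.14% of all genes, and KIF22 differed most, by -1.21, with an adjusted p of 8.65e-09 by limma. KIF23 did not pass in either, at 0.11 (-0.15 to 0.37) for DBA and -0.13 (-0.38 to 0.13) for 3MC.

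**Figure D4:**
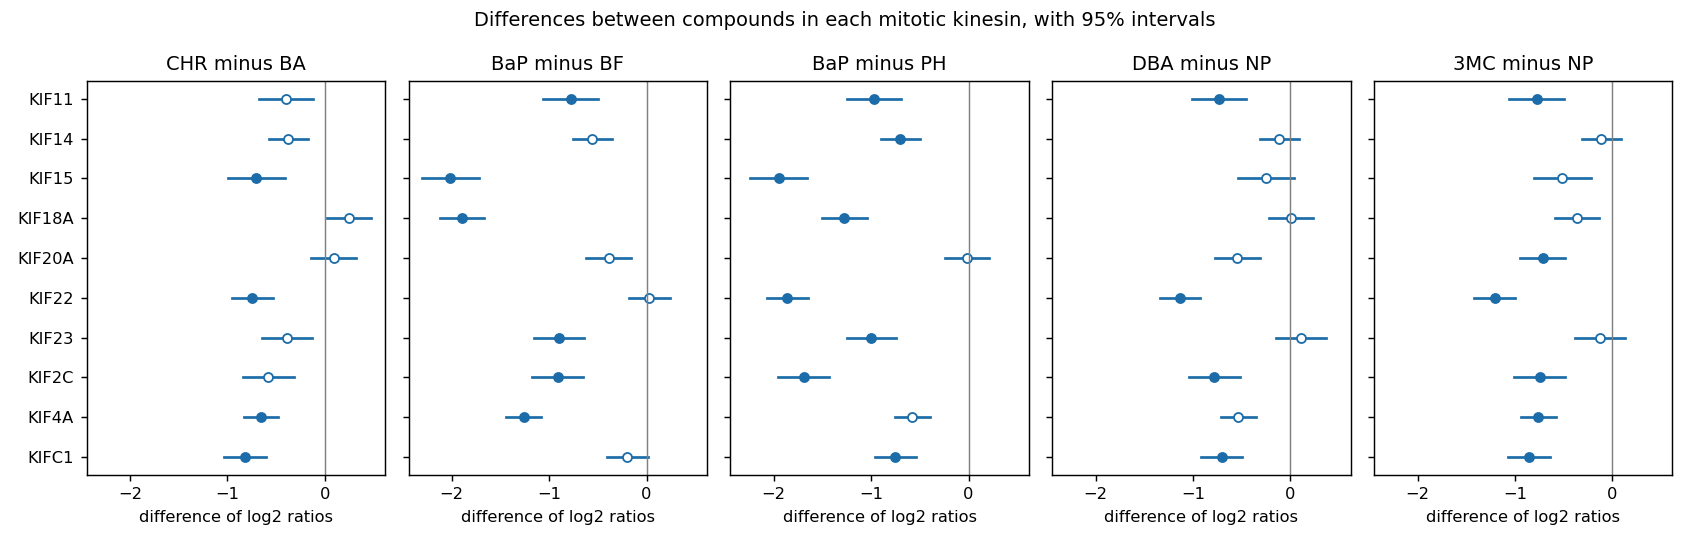
Difference of log2 ratios between 2 compounds for each mitotic kinesin, first compound minus second, with 95% intervals as lines and filled points where the difference passed. Between BaP and BF, KIF15 (-2.02) and KIF18A (-1.90) differ most while KIF22 sits at 0.03.

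Genes that work with the kinesins, a list of 16 partners and cargoes, fell as well. All 16 fell with BaP and with PH, 15 with IND, 14 with BF, 14 with 3MC, 14 with DBA, 13 with CHR, 8 with BA and 5 with NP, and 0 rose. The shares of all genes that fell are given with the kinesin counts above. Their median was -2.64 with BaP, -1.67 with BF, -1.63 with PH and -0.32 with NP. PLK1, a kinase of mitotic entry, fell with all 9 compounds, to -3.22 ± 0.0362 with BaP and -0.75 ± 0.0274 with NP. HMMR, a spindle protein, was at -3.52 ± 0.119 with BaP and -1.44 ± 0.0318 with NP. BIRC5, a subunit of the Aurora B complex, was at -3.16 ± 0.0671 with BaP, and ANLN, which builds the cleavage furrow, at -3.33 ± 0.0454.

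Other mitotic kinesins were CENPE, KIF20B, KIF2A and KIF24. CENPE, which carries chromosomes to the spindle equator, fell with 6 compounds, to -2.53 ± 0.152 with BaP and -1.56 ± 0.207 with PH. KIF20B fell with 6, to -1.64 ± 0.126 with IND and -1.61 ± 0.0591 with PH. KIF2A rose with BF (0.72 ± 0.109), and KIF24 changed with none.

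Transport and other kinesins, with their light chains, had medians between -0.07 and 0.13. Of 28 tested, 5 fell and 8 rose with BaP, 7 fell and 7 rose with BF, 6 fell and 3 rose with CHR, 0 fell and 2 rose with PH, and 0 changed with BA. With NP 1 fell and 3 rose, with 3MC 1 fell, with DBA 1 fell, and of 25 tested with IND 5 fell and 2 rose. Of all genes tested, 10% fell and 15.1% rose with BaP, and 20.3% fell and 16.1% rose with BF. Shares with the other compounds are given with the kinesin counts above. KIF16B, an endosome motor, fell with 6 compounds, to -1.17 ± 0.0265 with 3MC and -1.16 ± 0.0263 with NP. KLC4, a kinesin light chain, was at -3.20 ± 0.0869 with BF, and its relative KLC2 fell with BF (-1.75 ± 0.112) and rose with BaP (0.79 ± 0.0055). KIF17 rose with BaP (1.26 ± 0.264) and PH (1.15 ± 0.155).

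**Figure D5:**
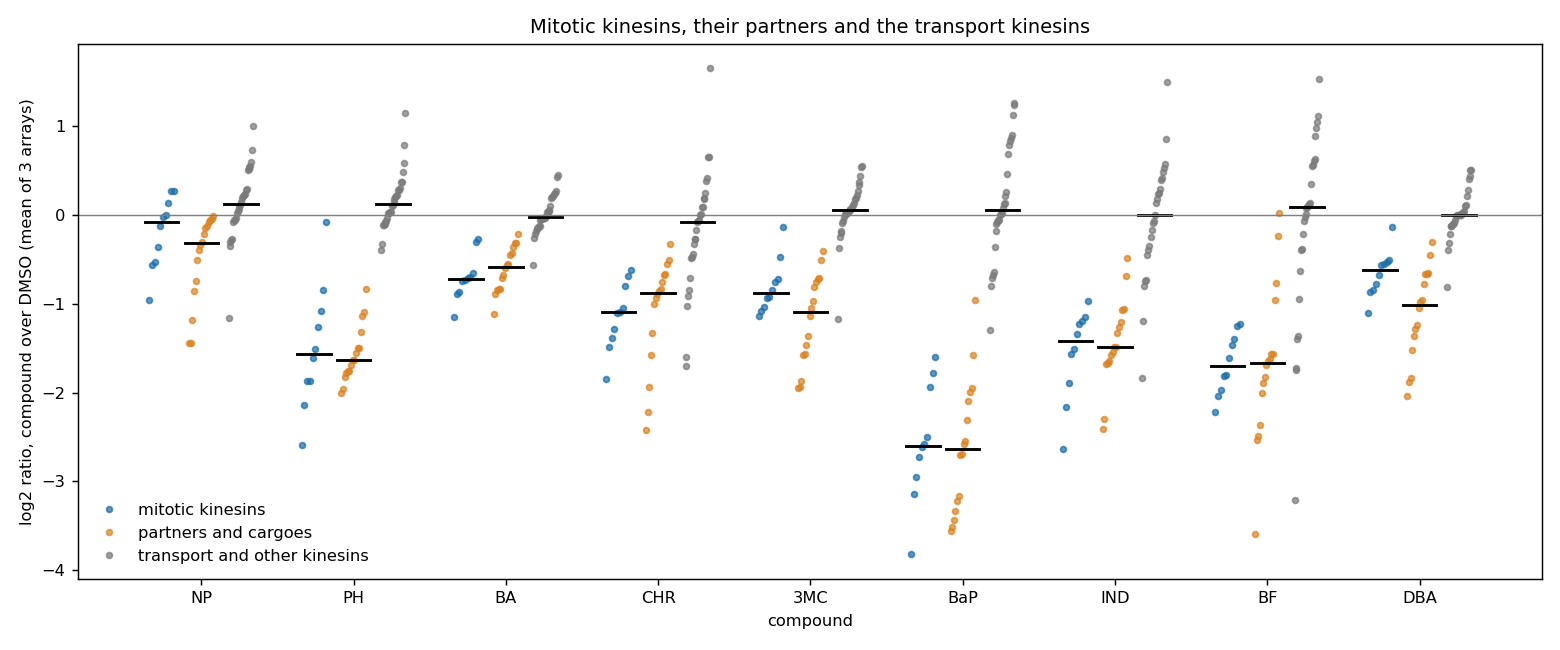
Log2 ratio of compound over DMSO of each gene (points) in lists of kinesins and their partners, by compound, with the median of each list as a black bar. With BaP the median is -2.60 for the mitotic kinesins and 0.05 for transport kinesins.

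Of 16 regulators of mitotic gene transcription, 7 fell and 1 rose with BaP, 8 fell and 2 rose with BF, 7 fell and 2 rose with IND, 6 fell and 1 rose with CHR, and 3 fell and 2 rose with PH. With BA 2 fell and 1 rose, with NP 2 fell and 0 rose, and with 3MC and with DBA 1 fell and 1 rose. Of all genes tested, 10% fell and 15.1% rose with BaP, and 20.3% fell and 16.1% rose with BF. FOXM1, a factor that drives late cell cycle genes, was at -2.38 ± 0.109 with BaP, -2.24 ± 0.0575 with BF and -1.58 ± 0.127 with PH. MYBL2, which joins MuvB on such promoters, was at -3.93 ± 0.071 with BF and -0.88 ± 0.0804 with BaP, and did not pass with PH (0.47 ± 0.0814). LIN9, a MuvB subunit, was at -1.88 ± 0.0436 with BaP. CDKN1A, an inhibitor of cyclin-dependent kinases, rose with 8 compounds, among them DBA (1.68 ± 0.393), PH (1.54 ± 0.203) and 3MC (1.06 ± 0.127). Its spot held saturated pixels on 3 BaP, 3 BF, 2 CHR, 1 BA and 1 IND arrays, so no size is given there.

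Across the 24 arrays of the main platform, the 45 pairs of kinesins correlated with Pearson r between 0.38 and 0.96, with a median of 0.86. KIF2C followed the mean of the others most closely (0.97) and KIF22 least (0.64). The genes most like the mean of the kinesins were SMC2 (0.986), RAD51AP1 (0.983), CCNA2 (0.977), MIS18A (0.975), HJURP (0.975), CCNB2 (0.972), HADH (0.970), PLK4 (0.968), RFC3 (0.968) and CKAP2L (0.968). SMC2 is a condensin subunit, CCNA2 and CCNB2 are cyclins, and HADH is a mitochondrial enzyme of fatty acid oxidation. The arrays fall into sets of 3 per compound and all genes share them, so these correlations are a description.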

How the data were processed

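Expression was measured on 27 2-colour Agilent arrays. Per the file headers, the deposited scanner files hold the intensity of each spot and of its local background in both channels, not normalised, and the percent of saturated pixels. The authors also deposited log2 ratios, whose normalisation is not given in the sources used here. Of their columns, 20 could be tied to spots and served as an alternative, and 7 were not used.

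Control spots and spots flagged at -75 or lower were left out. Background was corrected by normexp with an offset of 50 and each array normalised by loess (limma 3.58.1, R 4.3.3, data.table version 1.17.8). Spots of a probe were averaged, and the brightest probe stood for its gene. A probe was tested if it stood 2 background SDs above background on 2 of 3 arrays of a compound. Of 41000 probes, 26852 had a gene name on the main platform and 26789 on that of IND. limma's lmFit and eBayes gave 1 mean per compound over 24 arrays, and IND was fitted alone, with Benjamini-Hochberg adjustment. Results were listed and drawn with Python 3.11.15, pandas 2.3.3, numpy 2.4.6 and matplotlib 3.10.9.

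The members and lists were chosen with earlier results of these data known. All members are named, with up to 4 genes of each list, by the number of compounds passed and then mean size, and the 10 genes most like the members. KIF18B is not on the arrays. Tested on simulated ratios with 200 changed genes among 17375 (14269 for IND), the fit recovered at least 97% of 2-fold changes. These ratios had normal noise at each gene's fitted spread. They held no dye bias, no dim signals and no array like BA array 1, so recovery under those conditions was not tested. The number of arrays limits the precision. Alternatives changed the background correction, normalisation, filter, probes, weights, threshold and arrays used. BA array 1 left out, fits within a scanner layout and foreground medians were chosen after seeing the data.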

Additional observations from a re-analysis of the deposited data

Results flagged for a closer look

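With NP, 3 kinesins lay above 0 on all 3 arrays but below 0 on all 3 arrays of most other compounds. KIF22 was at 0.27 with NP and below 0 on all arrays of 8 other compounds. KIF2C was at 0.27 with NP and likewise below 0 with 8 others, and KIFC1 was at 0.14 and below 0 with 7 others. None of the 3 passed with NP. KIF22 and KIF2C fell short of 1.5-fold there, with limma's adjusted p at 0.00224 and 0.0126. The difference from NP was tested for DBA and 3MC, where all 3 genes were lower (KIF22 by -1.13 and -1.21, KIF2C by -0.78 and -0.74, KIFC1 by -0.71 and -0.86). It was not tested for the other compounds. With median centring in place of loess, KIF22 was at 0.03, KIF2C at 0.02 and KIFC1 at -0.09 with NP.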

How the results depend on the processing

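The counts of kinesins that passed with BaP, BF, IND, PH, CHR and 3MC, for BaP minus BF, BaP minus PH and 3MC minus NP, and in the F test stayed within 1.5 times under the alternatives run. With BA (8) the count was 4 with median centring and 0 on its own 3 arrays. It was 3 with the authors' ratios, which held 8 kinesins and only arrays 1 and 2 of BA. The authors' ratios of BA array 1 correlated at 0.65 with those used here. With DBA (5) it was 9 with no minimum fold, 8 with no background correction and 10 with plain subtraction. With NP (1) it was 6 with no minimum fold, where KIF22 and KIF2C were higher and the rest lower. It was 2 with foreground medians, median centring, no background correction, plain subtraction or the authors' ratios. For CHR minus BA (4) it was 8 with no minimum fold and 1 with array weights or BA array 1 left out. For DBA minus NP (4) it was 1 with median centring, 9 with plain subtraction and 7 with the authors' ratios. KIF18A in DBA minus NP was -1.16 with plain subtraction, against 0.0035 as reported, but its Cy5 signal was not well above background with DBA, so neither size can be read. The cause was not tested.

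Leaving out 1 array in turn gave 8 to 8 kinesins with 3MC, 6 to 8 with BA, 9 to 10 with CHR, 5 to 6 with DBA, 1 to 2 with NP (2 without NP array 3), 9 to 9 with PH and 10 to 10 with BaP, BF and IND. It gave 1 to 5 for CHR minus BA (1 without BA array 1), 6 to 7 for BaP minus BF, 8 to 9 for BaP minus PH, 4 to 4 for DBA minus NP, 6 to 6 for 3MC minus NP and 10 to 10 in the F test. No pairing by array number was seen on average: residuals of 84 same-numbered pairs correlated at 0.0033 on average (-0.20 to 0.15), with 5 over 0.1. Differently numbered pairs were not compared, so pairing between some of the compounds was not tested. With the number as a replicate block the counts were the same, such as 8 with BA and 4 for CHR minus BA.

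Over all genes, median centring moved the share of calls that were lower to 28.9%, against 70.4%, with DBA, to 83.0%, against 65.2%, with NP, to 27.3%, against 39.9%, with BaP and to 43.0%, against 55.8%, with BF. All-gene calls with BA were 893, against 1827 without BA array 1 and 0 on its own arrays. The authors' ratios could be fitted for 9332 genes and 8 kinesins, without KIF14 and KIF18A. Signal near background limits KIF14 with NP, 3MC, DBA and IND and KIF18A with DBA. With DBA the scanner software had also flagged 26 spots of KIF20A and 2 of KIF4A, which stayed in the fit. Their mean Cy5 signals there were 30.1 and 36.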

Other observations

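Hepatocyte genes also changed on these arrays. Of 8 markers, 8 fell with BF, 7 with IND, 6 with BaP, 4 with NP, 3 with CHR, 3 with DBA, 2 with PH, 2 with 3MC and 1 with BA, while 2 rose with CHR, 2 with 3MC, 1 with NP and 1 with DBA. The shares of all genes that fell and rose are given with the kinesin counts above. Spots of ALB, APOA1, SERPINA1 and TF held saturated pixels on arrays of several compounds, as did APOB with PH and BA and TTR with BA and CHR, so their ratios there are uncertain. FGB, a chain of fibrinogen, fell with 8 compounds, to -1.49 ± 0.076 with IND, -1.20 ± 0.0915 with NP and -0.81 ± 0.0998 with PH. AFP, a fetal serum protein that hepatoma cells make, was at -2.97 ± 0.106 with BF and -1.31 ± 0.0485 with NP. APOB, the main protein of very low density lipoprotein, was at -2.42 ± 0.0932 with BF and -1.42 ± 0.0561 with NP. With NP, TTR was at -1.21 ± 0.0165, SERPINA1 rose (1.03 ± 0.173), and ALB, APOA1 and TF did not pass.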
